A study of Saccharomyces cerevisiae with 9 samples.

Results

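The 10 genes described here encode amino acid permeases of the yeast plasma membrane: GAP1, AGP1, GNP1, BAP2, BAP3, TAT1, TAT2, MUP1, CAN1 and LYP1. They were chosen by name and were found in the count table by their systematic names (YKR039W, YCL025C, YDR508C, YBR068C, YDR046C, YBR069C, YOL020W, YGR055W, YEL063C and YNL268W), so that they are 10 of 7128 gene rows. All 10 passed the filter on low counts. The host was BY4743, a diploid laboratory strain without HIS3, LEU2 and URA3, grown at 30 °C in SC–Leu/Ura medium and harvested in log phase at an OD of 1.0. Each culture carried the multicopy plasmid pTOW40836, with URA3 and a weakly expressed leu2 allele as markers, either empty (vector control), with EGFP, or with moxGFP, a green fluorescent protein without cysteines. Both GFPs were driven by the TDH3 promoter. There were 3 biological replicates of each of these groups, which the labels call Vector, GFPop and MOXop. All groups shared the host strain, the plasmid backbone and the medium. RNA came from whole cultures, so a lower level in every cell and a change in some of the cells cannot be told apart, and plasmid copy number per cell was not analysed here.

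Permeases of this family carry amino acids into the cell together with protons. Gap1 takes up nearly every amino acid, while most of its relatives have a narrower range. Transcription of many of these genes is known to respond to amino acids outside the cell through the SPS sensor of the plasma membrane (Ssy1, Ptr3 and Ssy5), whose protease Ssy5 cuts the factors Stp1 and Stp2 so that they enter the nucleus. GAP1 is instead a classic target of nitrogen catabolite repression, in which the GATA factors Gln3 and Gat1 activate transport and breakdown genes when good nitrogen sources are scarce. Gcn4 activates genes of amino acid synthesis when amino acids run short.

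The promoters of 4 of the genes are shown, those of the called genes GAP1 and MUP1 and of the most abundant members BAP2 and AGP1, because each holds a match to a motif of a regulator described here. Each line gives bases 250 to 101 before the start codon on the gene's own strand, from RefSeq's R64 assembly of strain S288C, with capitals for the matches to the motifs searched.
GAP1: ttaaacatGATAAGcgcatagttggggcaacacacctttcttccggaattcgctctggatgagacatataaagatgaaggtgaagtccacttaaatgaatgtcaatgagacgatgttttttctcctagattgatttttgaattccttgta
AGP1: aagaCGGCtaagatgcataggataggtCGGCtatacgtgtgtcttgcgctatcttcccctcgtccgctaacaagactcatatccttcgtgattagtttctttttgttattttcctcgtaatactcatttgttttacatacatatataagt
MUP1: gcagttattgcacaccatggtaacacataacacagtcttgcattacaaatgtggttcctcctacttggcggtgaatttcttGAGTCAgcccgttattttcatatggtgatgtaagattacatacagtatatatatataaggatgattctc
BAP2: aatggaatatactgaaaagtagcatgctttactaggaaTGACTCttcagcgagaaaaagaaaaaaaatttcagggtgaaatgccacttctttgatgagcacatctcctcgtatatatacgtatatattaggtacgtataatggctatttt
Motifs were searched on both strands in the 300 bases from 250 before to 50 after the start of each coding sequence. GATAAG, the letters read by Gln3 and Gat1, stood in the window of 1 member, GAP1 (242 to 237 bases before the start codon), and in 14.7% of all 6026 windows. CGGC, the core of the Stp1 and Stp2 sites, stood in 3 members and in 47.8% of all windows: AGP1 holds it at 246 to 243 and at 223 to 220 bases before its start, LYP1 holds a pair of matches, and CAN1 has a match inside its coding sequence. TGACTC, the letters read by Gcn4, stood in 2 members, BAP2 (212 to 207 bases before the start) and MUP1 (169 to 164, where it reads GAGTCA on the gene's strand), and in 7.95% of all windows. CACGTG, bound by Cbf1, and CTGTGGC, bound by Met31 and Met32, were in none of the 10 windows, and in 2.9 and 1.91% of all windows. These are matches of letters, not tested binding sites.

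Counts per library ran from 7022201 to 12959660 over all genes, and each member had from 81 to 11132 counts in a library. The EGFP entry took 11.2 to 23.8% of gene counts in the EGFP libraries and at most 0.000675% in the vector control, and the moxGFP entry took 4.11 to 31.1% in the moxGFP libraries. moxGFP replicate 2 stood apart: ribosomal RNA took 61.2% of its gene counts, against 2.74 to 23.0% in the other 8 libraries. This library had the lowest level of 6 of the 10 members (BAP2, BAP3, GNP1, MUP1, CAN1 and LYP1), so values without it are given beside the results. The part of its ribosomal RNA in these values was not tested. Levels below are CPM, the counts of a gene relative to the size of its library after scaling by edgeR's TMM method. Differences are log2 fold changes with their standard error (SE) from the quasi-likelihood test of edgeR, fitted to the 9 libraries together, and a gene was called at a Benjamini-Hochberg FDR below 0.05 over 6338 genes tested.

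In the vector control the permease genes covered a wide range of transcript levels. Per kilobase of coding sequence, BAP2 was highest at 425 ± 36.5 CPM (mean ± SD, n = 3), followed by AGP1 at 357 ± 55.0 CPM and MUP1 at 297 ± 65.3 CPM. These top genes overlapped with their neighbours in the order, and all 3 libraries of MUP1 lay above those of the next gene, CAN1 (145 ± 15.8 CPM per kilobase). LYP1 (129 ± 21.7), GNP1 (112 ± 2.72), BAP3 (102 ± 12.4), TAT2 (97.3 ± 20.9) and GAP1 (83.0 ± 12.4) followed, each overlapping with the next. TAT1 was lowest, at 21.1 ± 3.69 CPM per kilobase, and did not overlap with GAP1. BAP2 stayed first and TAT1 last in both overexpressing strains. With EGFP, BAP2 (426 ± 45.4 CPM per kilobase) stood clear of AGP1 (184 ± 34.6), whereas with moxGFP they overlapped (384 ± 171 and 341 ± 85.9). GAP1, well above TAT1 in the vector control, overlapped with it under EGFP (31.2 ± 8.77 and 29.8 ± 8.48 CPM per kilobase) and under moxGFP (37.5 ± 6.6 and 33.6 ± 7.61).

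**Figure D1:**
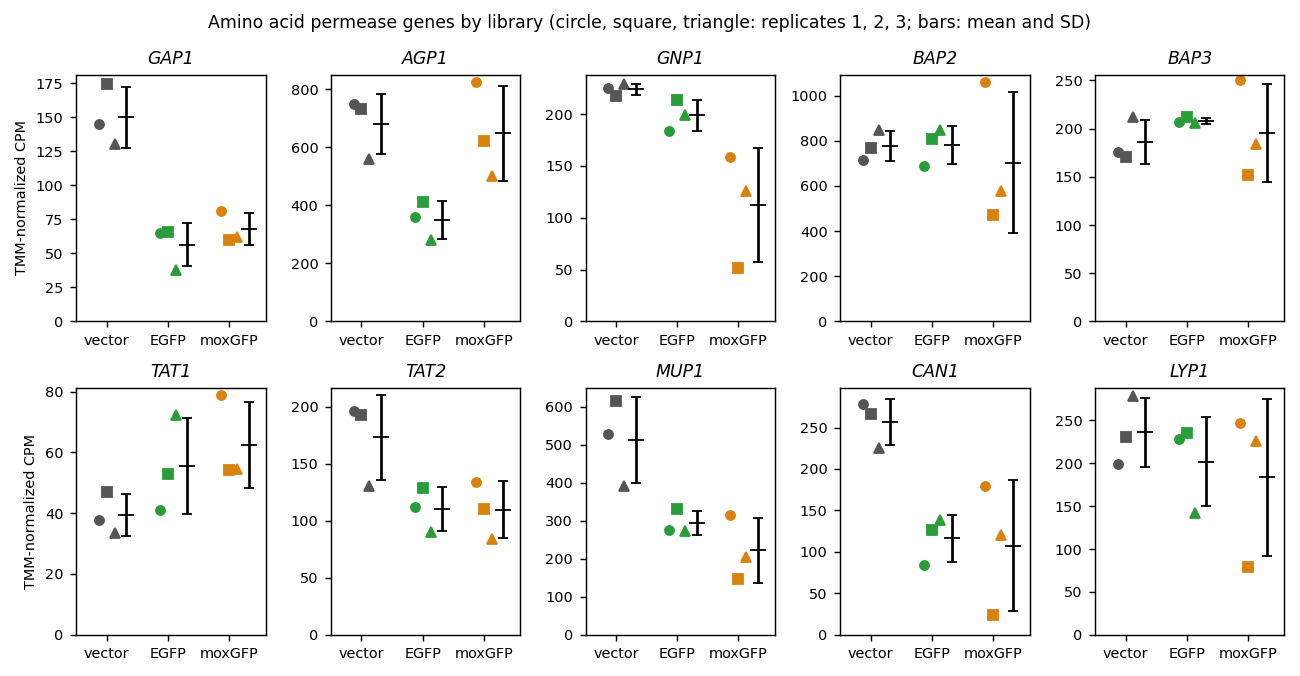
Normalized CPM (vertical axis, from 0) of the 10 permease genes in each of the 9 libraries, by group, with circles, squares and triangles for replicates 1 to 3 and bars for mean and SD. All GAP1 values of both GFP groups lie below the vector control, and the moxGFP square (replicate 2) is the lowest point for CAN1, at 23.6 CPM.

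GAP1, the general amino acid permease, fell with both GFPs. Its level was 145, 175 and 131 CPM in vector replicates 1 to 3, 65.2, 66.1 and 38.2 CPM in EGFP replicates 1 to 3, and 81.5, 59.8 and 62.0 CPM in the moxGFP libraries. Every GFP library lay below every vector library, and the EGFP and moxGFP libraries overlapped. EGFP overexpression lowered GAP1 2.66-fold (log2 fold change −1.41, SE 0.29, edgeR FDR 0.0102), and moxGFP overexpression lowered it 2.21-fold (−1.15, SE 0.29, edgeR FDR 0.0147). The fall with EGFP stayed below the threshold whichever single library was left out (9 of 9 fits, −1.54 to −1.19), and that with moxGFP in 7 of 9 fits, the exceptions being those without vector replicate 1 (edgeR FDR 0.0519) and without moxGFP replicate 3 (0.0518). Neither call held when libraries were scaled by total counts alone (edgeR FDR 0.291 with EGFP and 0.207 with moxGFP) or by the ERCC spike-ins (0.90 and 0.677), although the log2 fold changes stayed at or below −0.98. The spike-ins took from 0.144 to 0.405% of counts, with both extremes within the vector control.

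AGP1 and GNP1 are close relatives, with 73.0% identity over 1539 aligned bases of coding sequence, and they differed in which GFP went with their low values. Agp1 imports many neutral amino acids, glutamine and asparagine among them. AGP1 was at 749, 730.5 and 559.5 CPM in the vector control, 359.5, 411 and 280.0 CPM with EGFP, and 823.5, 621 and 500.1 CPM with moxGFP. Only the EGFP libraries were low, each below all vector and moxGFP libraries. The difference from the vector control was −0.96 on the log2 scale with EGFP (SE 0.31), just short of the threshold in edgeR (FDR 0.0572), and −0.07 with moxGFP (SE 0.30, edgeR FDR 0.876). Without moxGFP replicate 2 the EGFP difference was called (−1.0, SE 0.28, edgeR FDR 0.0132), as it was without moxGFP replicate 1.

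Gnp1 is a high-affinity glutamine permease. GNP1 was at 225, 218 and 229 CPM in the vector control, 184, 214 and 199.6 CPM with EGFP, and 159, 51.3 and 126 CPM with moxGFP. Its 3 groups did not overlap, with moxGFP lowest, but the EGFP libraries lay close under the vector control. The log2 difference from the vector control was −0.17 with EGFP (SE 0.36, edgeR FDR 0.785) and −0.99 with moxGFP (SE 0.36, edgeR FDR 0.0593). With moxGFP replicate 2 left out the latter was smaller and was called (−0.66, SE 0.25, edgeR FDR 0.0483).

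BAP2 and BAP3 encode the branched-chain amino acid permeases, which import leucine, isoleucine and valine, and the medium here held no leucine. BAP2 was at 715, 768 and 848 CPM in the vector control, 687, 807 and 846.5 CPM with EGFP, and 1059.7, 471 and 578 CPM with moxGFP. The EGFP values overlapped with the vector values, while the moxGFP libraries held both the highest and the lowest of the 9 values. The log2 differences of 0.01 with EGFP (SE 0.34, edgeR FDR 0.992) and −0.14 with moxGFP (SE 0.34, edgeR FDR 0.765) were smaller than their errors. Both changed sign with the library left out: without moxGFP replicate 2 they were −0.04 and 0.07.

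BAP3 was at 176, 170.2 and 212 CPM in the vector control, 207, 212 and 206 CPM with EGFP, and 250.9, 152 and 184 CPM with moxGFP. Groups overlapped in every comparison. Its log2 differences of 0.16 with EGFP (SE 0.27, edgeR FDR 0.713) and 0.07 with moxGFP (SE 0.27, edgeR FDR 0.848) were within 1 SE of 0.

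TAT1 and TAT2, which import aromatic amino acids, leaned in opposite directions. Tat1 carries tyrosine with low affinity for tryptophan, and Tat2 is the main tryptophan permease. TAT1 was at 37.8, 46.8 and 33.4 CPM in the vector control, 41.1, 53.0 and 72.3 CPM with EGFP, and 78.9, 54.2 and 54.6 CPM with moxGFP. All moxGFP libraries were above the vector control, and the EGFP libraries overlapped with both. The log2 difference from the vector control was 0.50 with EGFP (SE 0.29, edgeR FDR 0.276) and 0.67 with moxGFP (SE 0.29, edgeR FDR 0.101). Leaving out moxGFP replicate 2 made the moxGFP difference 0.75 (SE 0.29), which just passed (edgeR FDR 0.0496). In the R64 annotation a transcript on the other strand, TBRT, covers 1824 bases of TAT1. How the counting treated strand is not given in the sources used here, so reads of the pair may not have been told apart and the TAT1 values are uncertain.

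TAT2 was at 196, 193 and 130.1 CPM in the vector control, 112, 129 and 90.2 CPM with EGFP, and 134, 110.5 and 84.1 CPM with moxGFP. Its EGFP libraries were all below the vector control, though EGFP replicate 2 and vector replicate 3 nearly met, and the moxGFP libraries overlapped with it. The log2 differences, −0.65 with EGFP (SE 0.29, edgeR FDR 0.150) and −0.66 with moxGFP (SE 0.29, edgeR FDR 0.103), did not pass the threshold.

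MUP1, the high-affinity methionine permease, which also carries cysteine, fell with moxGFP. Its level was 529, 616 and 392.5 CPM in the vector control, 277, 331 and 273 CPM with EGFP, and 315, 145.5 and 205.5 CPM with moxGFP. Both GFP groups lay wholly below the vector control and overlapped with each other. The 2.31-fold fall with moxGFP was called (log2 fold change −1.21, SE 0.33, edgeR FDR 0.0214), and the log2 difference of −0.80 with EGFP was not (SE 0.33, edgeR FDR 0.125). The call with moxGFP held in 6 of 9 fits with a library left out (−1.54 to −0.99), including that without moxGFP replicate 2 (−0.99, SE 0.30, edgeR FDR 0.0203). It was lost without vector replicate 1 (edgeR FDR 0.0766), without vector replicate 2 (0.0669) and without moxGFP replicate 3 (0.0639), in a fit to the moxGFP and vector libraries alone (0.0576), with library sizes alone (0.242) and with the ERCC spike-ins (0.682).

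CAN1 and LYP1 encode the permeases of basic amino acids, Can1 for arginine and Lyp1 for lysine, and share 69.7% identity over 1540 aligned bases. CAN1 was at 278, 267 and 225 CPM in the vector control, 84.5, 126 and 138 CPM with EGFP, and 179, 23.6 and 120.1 CPM with moxGFP. Every GFP library was below every vector library, and moxGFP replicate 2, with 81 counts, was far below the others. The SE of CAN1 was the largest among the members, at 0.54 in both comparisons, and neither the log2 difference of −1.14 with EGFP (edgeR FDR 0.176) nor that of −1.25 with moxGFP (edgeR FDR 0.101) passed. Both were called once moxGFP replicate 2 was left out, at −1.19 with EGFP (SE 0.26, edgeR FDR 0.00299) and −0.78 with moxGFP (SE 0.29, edgeR FDR 0.0458).

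LYP1 was at 199, 231 and 278 CPM in the vector control, 228.5, 235 and 142.5 CPM with EGFP, and 247, 78.7 and 225.5 CPM with moxGFP. A single low library in each GFP group set its mean, and the groups overlapped. The log2 differences were −0.23 with EGFP (SE 0.40, edgeR FDR 0.741) and −0.36 with moxGFP (SE 0.40, edgeR FDR 0.514), and the latter was −0.005 without moxGFP replicate 2.

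**Figure D2:**
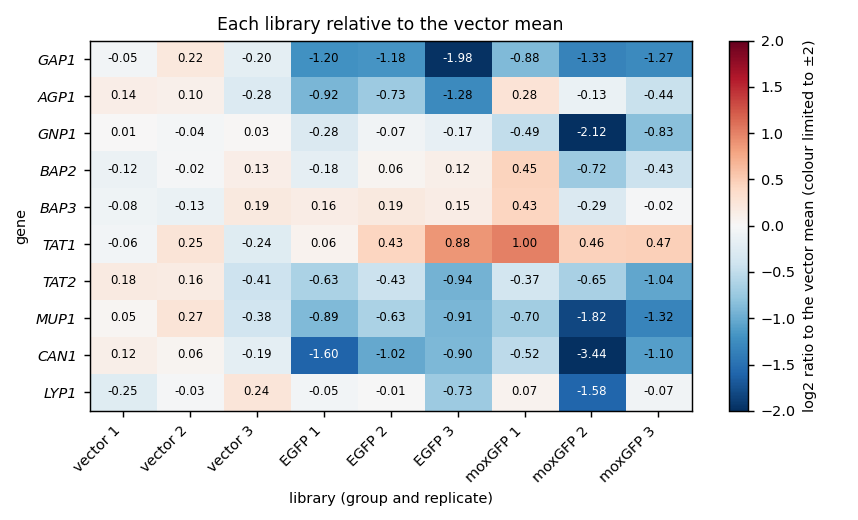
Log2 ratio of each library's CPM to the vector mean for each permease gene (rows) and library (columns), with blue below and red above the vector mean and colour limited to 2 on either side. GAP1, GNP1, TAT2, MUP1 and CAN1 are below 0 in all 6 GFP libraries, and TAT1 is above 0 in all 6.

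With EGFP overexpression, 1 of the 10 permease genes was called lower (GAP1) and 0 were called higher. Of all genes tested, 7.76% were called lower and 7.60% higher. Without an adjustment, 4 members had p below 0.05, and DESeq2's Wald test called 3 (GAP1, AGP1 and MUP1). That test called 774 of 6338 genes lower and 570 higher. For 6 members (GAP1, AGP1, TAT2, GNP1, MUP1 and CAN1) all EGFP libraries lay below all vector libraries, against 21.2% of all genes tested, and for 0 they lay above, against 24.6%. The median log2 fold change of the members was −0.44, beside 0.09 over all genes tested. With libraries scaled by total counts alone both medians moved up, to −0.01 for the members and 0.52 for all genes, and GNP1 and LYP1 changed sign (0.27 and 0.19), while the members' median stayed below that of all genes. Without moxGFP replicate 2, which enters this comparison through the shared spread, the filter and the scaling, 4 members were called lower (GAP1, AGP1, MUP1 and CAN1). Calls rose over all genes as well in that fit, to 1104 of 6404 lower and 945 higher, from 492 and 482 of 6338.

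With moxGFP overexpression, 2 members were called lower (GAP1 and MUP1) and 0 higher, where 14.0% of all genes tested were called lower and 14.8% higher. The moxGFP libraries lay below the vector control for 4 members (GAP1, GNP1, MUP1 and CAN1) and above it for TAT1, while 22.4% of all genes tested lay below and 22.9% above. The median log2 fold change was −0.51 for the members and 0.14 for all genes. In the fit without moxGFP replicate 2 there were 5 calls, GAP1, GNP1, MUP1 and CAN1 lower and TAT1 higher. Over all 6404 genes of that fit, 1206 were called lower and 1182 higher. Leaving out vector replicate 1 or moxGFP replicate 3 left 0 calls.

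**Figure D3:**
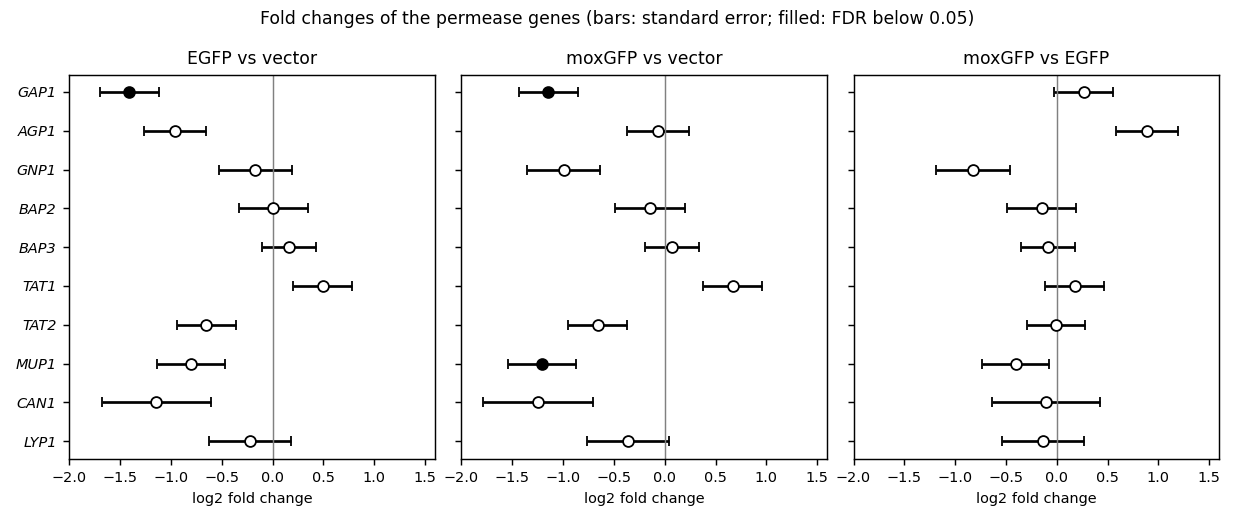
Log2 fold change of each permease gene (points) with its SE (bars) in the 3 comparisons, filled where the edgeR FDR is below 0.05. GAP1 is filled in both comparisons with the vector control and MUP1 in that with moxGFP, and no point is filled between the GFPs.

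Between the overexpressing strains, edgeR called 0 of 10 members, DESeq2's Wald test called 1 (AGP1), and 2 had an unadjusted p below 0.05 (AGP1 and GNP1). Relative to EGFP, moxGFP had 7.48% of all genes tested called higher and 7.07% called lower by edgeR. DESeq2's Wald test called 809 of 6338 higher and 643 lower. The libraries did not overlap for AGP1, higher with moxGFP (16.8% of all genes tested), and for GNP1, lower with moxGFP (19.0%). AGP1 was 1.85-fold higher with moxGFP (log2 difference 0.89, SE 0.31, edgeR FDR 0.0708). Without moxGFP replicate 2 its log2 difference was 0.96 (SE 0.30, edgeR FDR 0.0359) and passed. Calls over all genes rose as well in that fit, to 744 of 6404 higher and 650 lower, from 474 and 448 of 6338. GNP1 had a log2 difference of −0.83 (SE 0.36, edgeR FDR 0.136), which was −0.44 without that library (edgeR FDR 0.21). For the other 8 genes the log2 differences ranged from −0.40 (MUP1, SE 0.33) to 0.26 (GAP1, SE 0.29). The difference in MUP1 between the GFPs thus did not pass a test (edgeR FDR 0.423), although the fall was called against the vector control with moxGFP.

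Among 10 other plasma membrane permease genes, 3 were called lower with EGFP (DIP5, MUP3 and UGA4, the last a GABA permease). With moxGFP 5 were called lower (DIP5, AGP2, AGP3, MMP1 and MUP3), and 0 were called higher with either GFP. Of all genes tested, 7.76% were called lower and 7.60% higher with EGFP, and 14.0 and 14.8% with moxGFP. The median log2 fold changes of the list were −0.98 and −1.30, beside 0.09 and 0.14 over all genes tested. DIP5, the glutamate and aspartate permease, was at 905, 907 and 970 CPM in the vector control, at 79.5, 61.2 and 121 CPM with EGFP, and at 361, 56.6 and 217 CPM with moxGFP. It fell by 3.41 on the log2 scale with EGFP (SE 0.57, edgeR FDR 0.00459) and by 2.13 with moxGFP (SE 0.54, edgeR FDR 0.0156). MUP3, the low-affinity methionine permease and counterpart of MUP1, fell by 1.68 with EGFP and by 2.78 with moxGFP, and was lower with moxGFP than with EGFP (log2 difference −1.10, SE 0.33, edgeR FDR 0.0473). MMP1, which imports S-methylmethionine, fell by 2.33 with moxGFP and was also lower than with EGFP (−1.46, SE 0.36, edgeR FDR 0.0237). HIP1, the histidine permease of these histidine auxotrophs, was at 406, 321 and 289 CPM in the vector control, 143, 176 and 158 CPM with EGFP, and 265, 105 and 135 CPM with moxGFP, with log2 differences of −1.09 (edgeR FDR 0.0587) and −1.01 (0.0516). ALP1, next to LYP1 and a relative of CAN1, had log2 differences of 0.01 and −0.18.

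Of 12 SPS sensing genes, edgeR called 0 with EGFP, beside 7.60% of all genes tested called higher and 7.76% lower. In that comparison 5 had an unadjusted p below 0.05. DESeq2's Wald test called 2 higher and 0 lower with EGFP, beside 570 of 6338 genes higher and 774 lower. With moxGFP edgeR called 2 lower and 0 higher, where 14.0% of all genes tested were called lower and 14.8% higher. Those were SSY1, the sensor itself (log2 fold change −0.99, SE 0.34, edgeR FDR 0.0498), and ASI1, of the inner nuclear membrane complex that keeps uncut Stp1 and Stp2 from acting (−1.69, SE 0.52, edgeR FDR 0.0322). In moxGFP replicates 1 to 3, SSY1 was at 33.5, 12.0 and 23.7 CPM and ASI1 at 56.6, 7.87 and 47.3 CPM. In the vector control they were at 52.0, 46.2 and 41.2 CPM and at 118, 111 and 136 CPM. STP2 was above the vector control in all EGFP libraries, with a log2 difference of 1.16 (SE 0.36, edgeR FDR 0.0521). STP1, PTR3 and SSY5 had log2 differences of 0.57, 0.82 and 0.30 with EGFP and 0.40, 0.40 and −0.26 with moxGFP, none called. Without moxGFP replicate 2 the calls in this list were 3 higher and 2 lower with EGFP, and 2 higher and 1 lower with moxGFP. Over all 6404 genes of that fit, 945 were called higher and 1104 lower with EGFP, and 1182 and 1206 with moxGFP. Of 3 further SPS targets, PTR2, the di- and tripeptide transporter, rose with EGFP (0.86, SE 0.25, edgeR FDR 0.0412) and moxGFP (1.00, SE 0.25, edgeR FDR 0.0146), whereas DIP5 fell with both and AGP3 fell with moxGFP (−1.60, SE 0.45, edgeR FDR 0.0231).

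Of 14 genes of permease export and turnover, 1 was called higher with EGFP (ART5, an arrestin-like adaptor) and 0 lower, beside 7.60 and 7.76% of all genes tested. With moxGFP 3 were called lower and 0 higher, beside 14.0 and 14.8% of all genes tested. Leaving out moxGFP replicate 2 gave 3 higher and 1 lower with EGFP, and 1 higher and 3 lower with moxGFP. Over all 6404 genes of that fit, 945 were called higher and 1104 lower with EGFP, and 1182 and 1206 with moxGFP. RSP5, the ubiquitin ligase that marks permeases for endocytosis, fell by 1.5 with moxGFP (SE 0.47, edgeR FDR 0.035). It was at 262, 174 and 247 CPM in the vector control and at 127, 27.7 and 85.9 CPM in moxGFP replicates 1 to 3. The genes of its adaptors, CSR2 (log2 fold change −1.35) and ROG3 (−1.22), fell as well. SHR3, needed for permeases to leave the endoplasmic reticulum, had log2 differences of −0.50 with EGFP and −0.01 with moxGFP, and NPR1, a kinase that stabilizes Gap1 and other permeases, 0.08 and −0.53.

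Nitrogen regulation was followed in 10 genes of regulators, which included GCN4, and in 20 targets of nitrogen catabolite repression other than the members. Among the regulators edgeR called 0 with EGFP, beside 7.60% of all genes tested called higher and 7.76% lower. In that comparison 1 had an unadjusted p below 0.05. DESeq2's Wald test called 1 higher and 0 lower with EGFP, beside 570 of 6338 genes higher and 774 lower. With moxGFP edgeR called 2 higher and 0 lower, beside 14.8% of all genes tested higher and 14.0% lower. Leaving out moxGFP replicate 2 gave 2 higher with EGFP and 4 higher with moxGFP, beside 945 and 1182 of 6404 genes tested. GCN4, the activator of amino acid synthesis, was at 564, 350.1 and 657 CPM in the vector control, 773, 691 and 903 CPM with EGFP, and 1033, 1557 and 951 CPM with moxGFP. All GFP libraries were above the vector control, and the rise was called with moxGFP (1.17, SE 0.34, edgeR FDR 0.0265) but not with EGFP (0.59, SE 0.34, edgeR FDR 0.265). GZF3, a GATA repressor, rose with moxGFP (1.20, SE 0.34, edgeR FDR 0.0244). The activators GLN3 and GAT1 had log2 differences of 1.03 and −0.25 with EGFP and 1.12 and −0.70 with moxGFP, none called.

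Of the 20 targets, 1 was called higher and 4 lower with EGFP, and 1 higher and 6 lower with moxGFP, with median log2 fold changes of −0.10 and −0.65. Over all genes tested, 7.60% were called higher and 7.76% lower with EGFP, and 14.8 and 14.0% with moxGFP. The fit without moxGFP replicate 2 called 1 higher and 8 lower with EGFP, and 0 higher and 8 lower with moxGFP. It also called more genes lower over all 6404 tested, 1104 with EGFP and 1206 with moxGFP. MEP2, the high-affinity ammonium permease, was at 453, 483 and 304 CPM in the vector control, 60.8, 71.0 and 46.2 CPM with EGFP, and 137, 58.6 and 83.1 CPM with moxGFP. It fell by 2.80 with EGFP (SE 0.37, edgeR FDR 0.00148) and by 2.15 with moxGFP (SE 0.36, edgeR FDR 0.00303). DUR12, the urea amidolyase, fell by 1.79 and 2.45, and DUR3, the urea transporter, fell by 1.86 with EGFP. DAL4, the allantoin permease, rose with both (1.47 with EGFP, edgeR FDR 0.0258; 1.12 with moxGFP, edgeR FDR 0.0487), though its rise with moxGFP was not called without moxGFP replicate 2. DAL1, the allantoinase, fell with moxGFP (−1.65, SE 0.33, edgeR FDR 0.0058) and was lower than with EGFP (−2.06, SE 0.33, edgeR FDR 0.00544).

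Vacuolar amino acid transporters, which move amino acids between the cytosol and the vacuole, had the largest share of calls among the lists of 10 or more genes: 9 of 14 lower with EGFP and 9 of 14 lower with moxGFP, 0 higher in either, with median log2 fold changes of −1.28 and −1.0. The shares called lower over all genes tested were 7.76 and 14.0%. AVT7 was at 616, 415 and 367 CPM in the vector control, 102, 117 and 119 CPM with EGFP, and 144, 91.0 and 113 CPM with moxGFP. It fell by 2.05 with EGFP (SE 0.30, edgeR FDR 0.00256) and by 2.01 with moxGFP (SE 0.30, edgeR FDR 0.00196). RTC2, one of the PQ-loop exporters of basic amino acids, separated the GFPs: it was at 242, 143 and 206 CPM in the vector control, 59.9, 48.2 and 22.7 CPM with EGFP, and 156, 168 and 158 CPM with moxGFP. Its level was lower with EGFP (−2.18, SE 0.37, edgeR FDR 0.00463), not called with moxGFP (−0.30, SE 0.35, edgeR FDR 0.536), and higher with moxGFP than with EGFP (1.88, SE 0.36, edgeR FDR 0.0109). YPQ1 and YPQ2, of the same family, were also higher with moxGFP than with EGFP (1.31, edgeR FDR 0.0145, and 0.88, edgeR FDR 0.0373).

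The calls in these lists, like those over all genes, depended on how libraries were scaled. With libraries scaled by total counts alone, 0 of the 14 vacuolar genes were called in either comparison with the vector control. Over all 6338 genes tested that scaling called 115 with EGFP and 248 with moxGFP, against 974 and 1824 in the main test. With the ERCC spike-ins 0 genes of any list were called, beside 21 with EGFP and 28 with moxGFP over all genes. The vacuolar medians stayed at −0.85 and −1.06 with library sizes alone and at −1.32 and −1.18 with the spike-ins. Without moxGFP replicate 2, 10 of the vacuolar genes were called with EGFP and 9 with moxGFP, and of the other permeases 6 and 5. That fit called 1104 and 1206 of 6404 genes tested lower with EGFP and moxGFP, and 945 and 1182 higher. The lists were chosen with earlier results known, and their counts are descriptions.

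**Figure D4:**
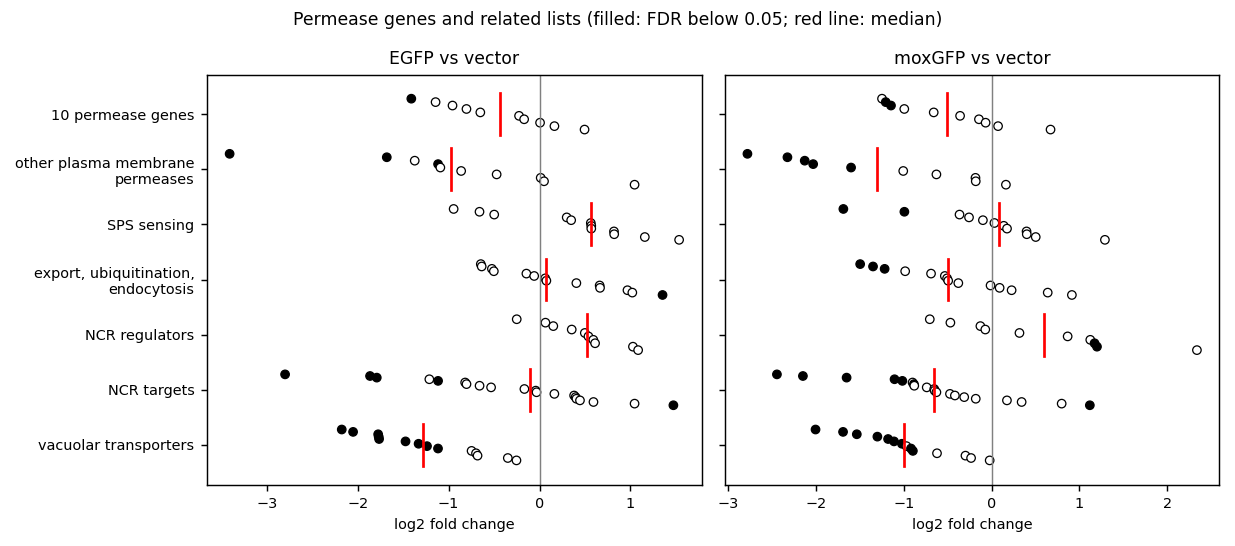
Log2 fold change against the vector control (horizontal axis) of the 10 permease genes and of the genes of 6 related lists, with EGFP (left) and moxGFP (right), filled where the edgeR FDR is below 0.05 and with a red line at each list's median. NCR stands for nitrogen catabolite repression, and the list marked NCR regulators includes GCN4, the activator of amino acid synthesis. The vacuolar list has 9 filled points in each panel, all below 0.

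The pattern of each member over the 9 libraries was compared with 5213 genes with standard names by the root mean square difference of mean-centred log2 CPM, where a small value marks a similar pattern. SUR7, which encodes a protein of the plasma membrane eisosome domain, was nearest to GAP1 (0.177), ATP1 to MUP1 (0.148), HEM1 to TAT2 (0.124), COS5 to CAN1 (0.134) and RPT5, of the proteasome base, to GNP1 (0.101). THI73 was nearest to AGP1 (0.21), MRPL35 to TAT1 (0.177) and MCM22 to LYP1 (0.173). CNA1, a catalytic subunit of calcineurin, was nearest to both BAP2 (0.16) and BAP3 (0.123), whose own spread over the libraries was small. No member was the nearest gene of another member. These values rest on the same 9 libraries, moxGFP replicate 2 included, and are descriptions.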

How the data were processed

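Total RNA with ERCC spike-ins from 9 cultures was sequenced in paired ends from stranded libraries (TruSeq Stranded Total RNA kit, NextSeq 550). The authors checked reads with FastP, aligned them with HISAT2 2.2.0, formatted them with SAMtools 1.11, quantified them with StringTie and deposited raw counts per gene, whole numbers without normalization. The submitters' processing notes also name edgeR 3.28.1. The genome build, annotation and strand setting of the counting are not given in the sources used here, so no coordinates are printed.

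From the 7220 rows, 92 spike-ins were set aside, edgeR's filterByExpr kept 6338 of 7128 genes, and TMM scaling and edgeR's quasi-likelihood test (two-sided, with FDR by Benjamini and Hochberg across the tested genes and a threshold of 0.05) were applied to all 9 libraries without a replicate block. Groups and replicate numbers come from the labels. Names, coding lengths, promoters and overlapping genes come from RefSeq R64, to which 6048 rows matched by locus tag. Near-identical copies (BLAST identity of 90% or more, covering 50% or more of a gene) were found for 0 members. The fit was tested on simulated counts. The members and the lists were chosen with earlier results of these data known. Every member is named, and list genes were named if called (at most the 4 largest changes per list and comparison) or if their role ties them to a member. Alternatives were DESeq2's size factors and Wald test, library sizes alone, spike-ins as library size, a minimum of 10 counts per gene in all libraries or no filter, a table stripped of ribosomal RNA, GFP and marker rows, fits restricted to the pair of groups compared, the replicate number as block, and leaving out each library. For the lists, the runs with library sizes alone, spike-ins, the block, DESeq2's Wald test and without moxGFP replicate 2 were added after seeing the data. Libraries of a group differed beyond counting noise (chi-square per degree of freedom 44.6 to 1405). Tools were R 4.3.3, edgeR 4.0.16, DESeq2 1.42.0, limma 3.58.1, Python 3.11.15, matplotlib 3.10.9, numpy 2.4.6, pandas 2.3.3 and BLAST 2.17.0.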

Additional observations from a re-analysis of the deposited data

How the results depend on the processing

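The number of permease genes called with EGFP against the vector control (1 in the main test) was 2 with DESeq2's size factors, 2 with at least 10 counts in every library, 3 with DESeq2's Wald test, 5 in a fit to the groups compared (GAP1, AGP1, TAT2, MUP1 and CAN1), and 0 with library sizes alone or with spike-ins as library size. With moxGFP (2 in the main test) it was 3 with DESeq2's size factors (GAP1, GNP1 and MUP1), 4 with DESeq2's Wald test, 1 in the fit to the groups compared, and 0 with library sizes alone or spike-ins. Between the GFPs (0) it was 1 with DESeq2's Wald test, which made 1452 calls over all genes, against 922 in the main test. Leaving out each library in turn gave 1 to 4, 0 to 5 and 0 to 1 calls. For EGFP, 2 genes were called without moxGFP replicate 1 and 4 without moxGFP replicate 2. Over all genes those fits made 959 and 2049 calls, against 974 in the main test. DESeq2's Wald test made 1344, the fit to the groups compared 1953 and DESeq2's size factors 975. With at least 10 counts in every library there were 1045 calls among 5485 genes. Library sizes alone gave 115 and spike-ins 21. For moxGFP, 0 were called without vector replicate 1 or moxGFP replicate 3, 1 without vector replicate 2, 4 without moxGFP replicate 1 and 5 without moxGFP replicate 2. Over all genes those fits made 750, 1232, 1405, 2028 and 2388 calls in that order, against 1824 in the main test. DESeq2's Wald test made 2197, the fit to the groups compared 1214 and DESeq2's size factors 1815. Library sizes alone gave 248 and spike-ins 28. The cause of these shifts was not tested, and the fits with a library left out also had fewer libraries.

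Over all genes, library sizes alone changed the share of calls that were higher from 49.5% of 974 to 70.4% of 115 with EGFP and from 51.4% of 922 to 13% of 146 between the GFPs. With spike-ins it was 33.3% of 21 calls with EGFP and 39.3% of 28 with moxGFP, against 51.4% of 1824 in the main test with moxGFP. The log2 fold changes of the members kept their direction and side of the threshold in 470 alternatives, passed or lost it in 22 and 12, and changed sign in 36, all of them in values that were not called. With EGFP against the vector control BAP2 (main 0.01) was −0.058 with DESeq2's size factors and with the Wald test, −0.059 with spike-ins, −0.0060 without a filter, −0.011 with at least 10 counts and −0.030 in the fit to the groups compared. With library sizes alone GNP1 was 0.27 and LYP1 0.19, and between the GFPs GAP1 was −0.18 and TAT1 −0.27. With spike-ins BAP3 was −0.018 with moxGFP, and CAN1 and LYP1 were each 0.12 between the GFPs. TAT2 between the GFPs was 0.013 with DESeq2's size factors and with the Wald test. With a library left out, values that changed sign ranged from −0.069 to 0.091 for BAP2 with EGFP, and with moxGFP from −0.28 to 0.085 for AGP1, −0.57 to 0.070 for BAP2 and −0.15 to 0.22 for BAP3. Between the GFPs they ranged from −0.56 to 0.11 for BAP2, −0.30 to 0.10 for BAP3, −0.017 to 0.41 for TAT1, −0.17 to 0.15 for TAT2, −0.66 to 0.41 for CAN1 and −0.38 to 0.27 for LYP1.

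Deviations of libraries with the same replicate number from their group means had a mean correlation of −0.02 (−0.33 to 0.23). For unlike numbers it was 0.01 (−0.25 to 0.31), so no pairing by number was seen. This measure cannot show whether cultures were grown or prepared together. A replicate block left the calls at 1, 2 and 0 members in the 3 comparisons, as without it.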
